A study of Mus musculus with 34 samples.

Results

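The genes described here are 48 genes of the cell cycle and DNA replication, split by role into 19 genes of DNA synthesis (S phase), 23 genes of mitosis, and 6 G1 cyclins and inhibitors of cyclin-dependent kinases. A gene was measured by a probe set annotated to its symbol alone, and where a gene had more of them, that with the highest mean signal over the arrays was taken. In this way 46 of the 48 were measured, out of 22180 genes in all: 18 S phase genes, 22 mitosis genes and all 6 G1 genes. Ccne2 shares its probe set with Ints8, and Ccnb1 is not analysed here.

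RNA of dendritic cells (DCs), the antigen-presenting cells that prime T cells, was measured on 34 arrays in C57BL/6 mice. The cells had been sorted from spleen by flow cytometry, and the small amounts of RNA were amplified before labelling. In one experiment, CD8+ DCs and CD8- DCs, the 2 main conventional subsets of the spleen, were sorted from mice labelled Mst1/2-KO (genotype Mst1/2-/-) and from wild type (WT) mice, with 4 arrays in each of the 4 groups. In another, total DCs were taken from Mst1/2-KO (3 arrays) and WT (4 arrays) mice. Mst1 and Mst2, encoded by Stk4 and Stk3, are the kinases of the Hippo pathway, which restrains growth in many tissues. A further pair of experiments used anti-CD40, an antibody that activates DCs, and mice that lack mature T and B cells because Rag1 is deleted (Rag1-/-). Experiment 1 compared Rag1-KO p38-KO (Rag1-/-/p38-/-, 3 arrays) with Rag1-KO DCs (4 arrays), both with anti-CD40. Experiment 2 held Rag1-KO DCs with anti-CD40 (2 arrays), WT DCs with anti-CD40 (1 array) and non-stimulated Rag1-KO DCs (1 array). The labels name no Cre driver or cell of deletion, no age or sex, and no pooling of spleens. They also do not tie arrays to separate mice, so p-values measure the spread between these arrays, which may be technical.

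The values are log2 signals, on which 1 unit is a doubling, and they can be compared within an experiment only. Array medians lay between 4.11 and 4.20. Stk4 averaged 7.47 ± 0.21 in Mst1/2-KO CD8+ DCs and 8.33 ± 0.09 in WT CD8+ DCs (SD, n = 4 each), and it fell in CD8- and total DCs too, by 0.77 and 1.09. Mapk14, which encodes p38α, averaged 8.47 ± 0.08 in the arrays labelled Rag1-KO p38-KO (SD, n = 3), against 8.24 ± 0.26 in Rag1-KO arrays (SD, n = 4), so its level does not bear out that label, and whether its probe set lies in the deleted part is not known here. Stk3 and Rag1 are not analysed here. DC markers were high on every array: Itgax, which encodes CD11c, lay at 9.97 to 10.65 and the MHC class II gene H2-Aa at 11.68 to 11.93. The CD8+ DC markers averaged 10.88 in Mst1/2-KO and 10.91 in WT CD8+ arrays, and 7.82 in Mst1/2-KO and 7.46 in WT CD8- arrays.

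A dividing cell passes a G1 phase, in which D-type cyclins and their kinases release E2F transcription factors from the retinoblastoma protein, and p21, p27 and the INK4 proteins hold those kinases back. E2F factors then drive genes of DNA synthesis, among them the MCM helicase and the enzymes that make deoxynucleotides. Later in the cycle, genes of the spindle, the kinetochore and chromosome segregation are transcribed through promoter elements that include the cell cycle genes homology region (CHR) and the CCAAT box. Conventional DCs arise from dividing precursors, and a small share of splenic DCs is still in cycle.

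The promoters of 8 genes that rose in Mst1/2-KO CD8- DCs are shown first, 4 of S phase and 4 of mitosis, because the text treats these classes apart. They are the members of each class with the smallest p in that comparison whose window held a searched motif. Promoter windows were taken from RefSeq (GRCm38.p6) and run from 250 bases before to 50 bases after the gene's start, 300 bases in all. Letters of 3 kinds were searched on both strands: E2F sites as TTTCCCGC, TTTCGCGC, TTTGCCGC or TTTGGCGC, the CHR as TTTGAA or TTCGAA, and the CCAAT box as CCAAT. Capitals mark a match on either strand. The S phase windows are Mcm2 (chr6:88898731-88899030, minus strand), Uhrf1 (chr17:56304063-56304362, plus strand), Mcm5 (chr8:75109259-75109558, plus strand) and Chaf1a (chr17:56040166-56040465, plus strand). Those of mitosis are Cdk1 (chr10:69352863-69353162, minus strand), Ttk (chr9:83834439-83834738, plus strand), Ccnb2 (chr9:70421505-70421804, minus strand) and Top2a (chr11:99024140-99024439, minus strand).
Mcm2: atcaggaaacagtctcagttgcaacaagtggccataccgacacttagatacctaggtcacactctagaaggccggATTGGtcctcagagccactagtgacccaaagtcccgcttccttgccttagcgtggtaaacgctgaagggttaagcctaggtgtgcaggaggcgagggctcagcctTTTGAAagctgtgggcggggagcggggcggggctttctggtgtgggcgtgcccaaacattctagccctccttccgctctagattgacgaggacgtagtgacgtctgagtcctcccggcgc
Uhrf1: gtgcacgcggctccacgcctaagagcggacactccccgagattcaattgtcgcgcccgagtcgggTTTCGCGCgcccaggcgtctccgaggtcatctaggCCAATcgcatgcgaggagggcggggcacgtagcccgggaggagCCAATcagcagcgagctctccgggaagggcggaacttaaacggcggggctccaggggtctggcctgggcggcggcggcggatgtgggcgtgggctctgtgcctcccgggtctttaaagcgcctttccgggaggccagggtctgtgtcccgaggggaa
Mcm5: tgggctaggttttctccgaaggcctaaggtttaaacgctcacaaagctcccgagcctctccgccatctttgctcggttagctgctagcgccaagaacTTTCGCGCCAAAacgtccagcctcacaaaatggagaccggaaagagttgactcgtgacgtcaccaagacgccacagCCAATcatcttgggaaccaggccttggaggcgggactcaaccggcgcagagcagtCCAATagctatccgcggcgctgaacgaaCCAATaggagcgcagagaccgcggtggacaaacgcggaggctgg
Chaf1a: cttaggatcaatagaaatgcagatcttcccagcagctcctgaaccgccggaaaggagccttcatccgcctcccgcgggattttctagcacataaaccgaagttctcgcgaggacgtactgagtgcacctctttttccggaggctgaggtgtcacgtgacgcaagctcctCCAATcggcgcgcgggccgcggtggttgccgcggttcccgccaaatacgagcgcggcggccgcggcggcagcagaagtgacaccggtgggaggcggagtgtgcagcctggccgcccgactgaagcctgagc
Cdk1: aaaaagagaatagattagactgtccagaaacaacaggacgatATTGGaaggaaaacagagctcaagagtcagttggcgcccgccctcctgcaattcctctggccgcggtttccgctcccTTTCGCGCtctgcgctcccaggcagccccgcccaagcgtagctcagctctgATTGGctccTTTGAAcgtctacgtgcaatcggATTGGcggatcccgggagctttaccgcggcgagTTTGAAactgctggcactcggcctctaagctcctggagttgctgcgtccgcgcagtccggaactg
Ttk: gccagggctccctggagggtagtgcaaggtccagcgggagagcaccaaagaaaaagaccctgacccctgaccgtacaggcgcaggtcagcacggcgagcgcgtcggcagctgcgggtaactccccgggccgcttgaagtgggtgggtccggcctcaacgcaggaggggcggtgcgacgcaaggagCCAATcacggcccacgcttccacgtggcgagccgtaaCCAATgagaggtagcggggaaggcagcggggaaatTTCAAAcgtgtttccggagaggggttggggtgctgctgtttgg
Ccnb2: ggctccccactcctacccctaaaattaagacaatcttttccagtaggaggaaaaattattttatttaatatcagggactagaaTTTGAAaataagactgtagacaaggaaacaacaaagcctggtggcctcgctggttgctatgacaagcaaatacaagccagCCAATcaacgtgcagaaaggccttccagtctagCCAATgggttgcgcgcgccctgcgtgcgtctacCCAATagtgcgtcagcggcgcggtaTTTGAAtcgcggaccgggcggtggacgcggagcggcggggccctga
Top2a: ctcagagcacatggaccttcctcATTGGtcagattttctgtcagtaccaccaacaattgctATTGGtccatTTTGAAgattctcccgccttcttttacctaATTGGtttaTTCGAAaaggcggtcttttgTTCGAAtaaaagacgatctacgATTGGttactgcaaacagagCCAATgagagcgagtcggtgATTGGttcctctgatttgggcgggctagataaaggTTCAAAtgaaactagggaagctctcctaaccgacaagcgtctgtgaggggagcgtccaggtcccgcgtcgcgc
The windows of Mcm5 and Uhrf1 held E2F letters, 2 matches that overlap by 4 bases in Mcm5 and 1 in Uhrf1. Uhrf1 has 2 windows, and the one not shown holds 3 CCAAT matches and no E2F match. Mcm2 had 1 CHR match and 1 CCAAT match, and Chaf1a had 1 CCAAT match only. Among the mitosis genes, CHR letters were found 2 times in Cdk1, 1 time in Ttk, 2 times in Ccnb2 and 4 times in Top2a. Each of those 4 also held CCAAT boxes, from 2 in Ttk to 6 in Top2a, and Cdk1 had 1 E2F match.

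Promoter windows were given for 36 of the 46 measured members. E2F letters were present for 7 of 15 S phase genes (46.7%) and 1 of 17 mitosis genes (5.88%), against 704 of all 27025 genes (2.6%). CHR letters were present for 2 of 15 S phase genes (13.3%) and 14 of 17 mitosis genes (82.4%), against 21.7% of all genes. CCAAT boxes were present for 66.7% of S phase and 88.2% of mitosis genes, against 41.1% of all genes. Of the 4 G1 genes with a window, 3 held a CCAAT box and none an E2F or CHR match. A match describes letters in the window and no binding.

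**Figure D1:**
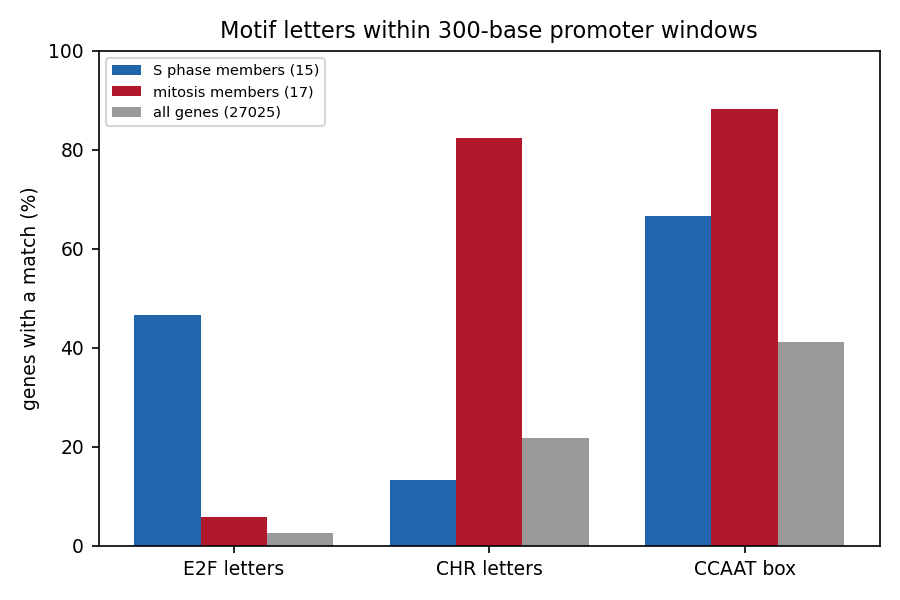
Share of genes (percent, y axis) whose 300-base promoter window holds E2F, CHR or CCAAT letters (x axis), as bars for 15 S phase members, 17 mitosis members and all 27025 genes. E2F letters stood at 46.7% in S phase genes and CHR letters at 82.4% in mitosis genes.

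In CD8- DCs, genes of both DNA synthesis and mitosis were higher in Mst1/2-KO than in WT. At a Benjamini-Hochberg adjusted p under 0.05 in limma, computed over all 22180 genes, 32 of the 46 members rose and 0 fell, where 3.9% of all genes rose and 2.79% fell. They were 13 of 18 S phase genes, 18 of 22 mitosis genes and 1 of 6 G1 genes. All 40 S phase and mitosis genes had a difference above 0, as did 50.4% of all genes, with medians of 0.54 for S phase, 0.59 for mitosis and 0.00 over all genes. Per array, the S phase genes averaged 7.44, 7.31, 7.30 and 7.61 in Mst1/2-KO CD8- DCs, against 7.01, 6.85, 6.96 and 6.84 in WT. The mitosis genes averaged 7.55, 7.40, 7.47 and 7.81 in Mst1/2-KO, against 6.89, 6.94, 7.10 and 6.95 in WT. In neither class did an Mst1/2-KO array overlap a WT array, and Mst1/2-KO replicate 4 was the highest in both. These are bulk samples, so a larger share of cycling cells and more of these RNAs per cell cannot be told apart.

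**Figure D2:**
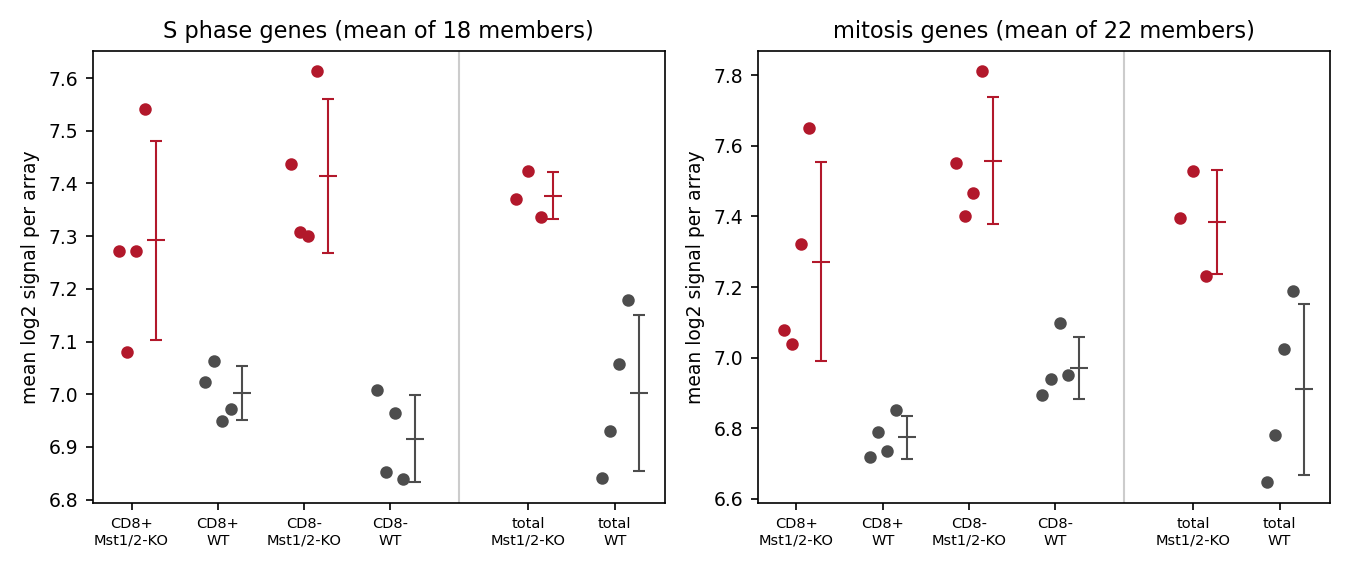
Mean log2 signal (y axis) of the 18 S phase members and of the 22 mitosis members, with a dot per array and the mean ± SD beside each group (x axis: Mst1/2-KO left of WT in CD8+, CD8- and total DCs). Total DCs come from another experiment, so their levels are not set against the sorted subsets. In each kind of DC the Mst1/2-KO dots lie above the WT dots.

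The MCM genes encode the helicase that opens DNA at the replication fork. Mcm5 had 7.48, 7.44, 7.24 and 7.92 in Mst1/2-KO CD8- arrays, against 6.73, 6.59, 6.84 and 6.88 in WT. No arrays of the groups overlapped, and Mcm5 rose 1.7-fold (log2 difference 0.76 ± 0.14 SE, adjusted p = 0.00218). Mcm2 stood at 7.42, 7.42, 7.43 and 7.80 in Mst1/2-KO, against 7.03, 6.78, 6.85 and 6.52 in WT. It was also free of overlap, and rose 1.65-fold (0.72 ± 0.12, adjusted p = 0.00127). For Mcm6 the values were 8.81, 8.32, 8.49 and 8.98 in Mst1/2-KO, against 8.32, 7.89, 8.07 and 7.84 in WT. Here the lowest Mst1/2-KO array and the highest WT array met at 8.32, and the difference was 0.62 ± 0.17 (adjusted p = 0.0322). The other 3 measured subunits rose less, Mcm3 by 0.52, Mcm7 by 0.51 and Mcm4 by 0.34, the smallest S phase difference that was called. Those of Mcm3, Mcm4 and Mcm6 were not called without 1 or more of the single arrays.

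Genes that load and support that helicase moved the same way. Gins2, of the GINS complex that travels with MCM, had 7.52, 7.53, 7.43 and 7.93 in Mst1/2-KO CD8- arrays, against 7.17, 6.79, 7.02 and 7.0 in WT. The groups lay apart, and Gins2 rose 1.52-fold (0.61 ± 0.12, adjusted p = 0.00374). The loading factors Cdc6 and Cdt1 rose by 0.58 and 0.57, and Gins1 by 0.56. Chromatin genes of S phase were among the largest differences. Uhrf1, which brings maintenance DNA methylation to new DNA, had 7.99, 7.79, 7.94 and 8.39 in Mst1/2-KO, against 7.25, 7.42, 7.28 and 7.21 in WT. Every Mst1/2-KO array exceeded every WT array, with a difference of 0.73 ± 0.12 (adjusted p = 0.00153). Chaf1a, the large subunit of the histone chaperone CAF-1, had 6.42, 6.29, 6.17 and 6.47 in Mst1/2-KO, against 5.84, 5.65, 5.48 and 5.52 in WT. It too was free of overlap and rose 1.64-fold (0.71 ± 0.13, adjusted p = 0.00239).

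Nucleotide supply and the G1/S regulators were less uniform. Rrm1, the large subunit of ribonucleotide reductase, rose by 0.46. In all, 5 S phase genes did not pass the test in CD8- DCs: cyclin E1 (Ccne1) differed by 0.31, thymidylate synthase (Tyms) by 0.29, the transcription factor E2f1 by 0.27, Rrm2 by 0.22 and the sliding clamp Pcna by 0.16. Pcna lay at 10.70 to 10.74 in Mst1/2-KO and at 10.39 to 10.87 in WT, so the WT arrays enclosed the Mst1/2-KO arrays. Rrm2, the small subunit of the reductase, has a second probe set of its own that differed by 0.51 in CD8- DCs, more than the 0.22 of the probe set taken.

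Among mitosis genes, Bub1b had the widest difference in CD8- DCs. Bub1b, which encodes the checkpoint kinase BubR1, had 7.33, 7.36, 7.23 and 7.66 in Mst1/2-KO CD8- arrays, against 6.96, 6.42, 6.75 and 6.27 in WT. All Mst1/2-KO arrays were above all WT arrays, and Bub1b rose 1.74-fold (0.80 ± 0.18, adjusted p = 0.012). Cdk1, the kinase that starts mitosis, had 7.93, 7.81, 7.84 and 8.03 in Mst1/2-KO, against 7.08, 7.12, 7.38 and 7.21 in WT. Its groups were separate as well, with a 1.63-fold difference (0.70 ± 0.13, adjusted p = 0.00349). Ccna2, cyclin A2, a partner of Cdk1 and Cdk2, had 8.36, 8.14, 8.38 and 8.51 in Mst1/2-KO, against 7.53, 7.72, 7.78 and 7.59 in WT. It rose 1.61-fold without overlap (0.69 ± 0.13, adjusted p = 0.00392).

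Further kinases of mitosis rose too. Aurkb, the kinase of the chromosomal passenger complex, had 7.88, 7.81, 7.78 and 8.11 in Mst1/2-KO CD8- arrays, against 7.15, 7.14, 7.13 and 7.33 in WT. Its groups were apart, and the rise was 1.63-fold (0.71 ± 0.15, adjusted p = 0.0063). Ttk, the checkpoint kinase Mps1, had 6.21, 6.05, 6.14 and 6.33 in Mst1/2-KO, against 5.39, 5.20, 5.79 and 5.60 in WT. Again no arrays overlapped, at 0.69 ± 0.13 (adjusted p = 0.00408). Plk1, which acts at centrosomes and in cytokinesis, had 6.80, 6.85, 6.88 and 7.22 in Mst1/2-KO, against 6.25, 6.15, 6.41 and 6.21 in WT, also without overlap. Plk1 rose by 0.68 ± 0.16 (adjusted p = 0.0163). Of the mitosis genes, 4 did not pass: the transcription factor Foxm1 (0.59, adjusted p = 0.0574), the kinesins Kif20a (0.47) and Kif23 (0.37), and the kinetochore motor Cenpe (0.43).

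Counted by separation, 36 of the 46 members had all 4 Mst1/2-KO CD8- arrays above all 4 WT arrays, 15 of S phase, 19 of mitosis and 2 of G1, where 6.52% of all genes did. Omitting Mst1/2-KO CD8- replicate 4, the highest array, left 16 members called, and omitting any of the others left 22 to 35. Of the 32 calls, 16 were made without each array in turn. Those 16 include Mcm2, Mcm5, Uhrf1, Chaf1a, Gins2, Cdk1, Ccna2, Aurkb and Ttk, while Bub1b and Plk1 are not among them.

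**Figure D3:**
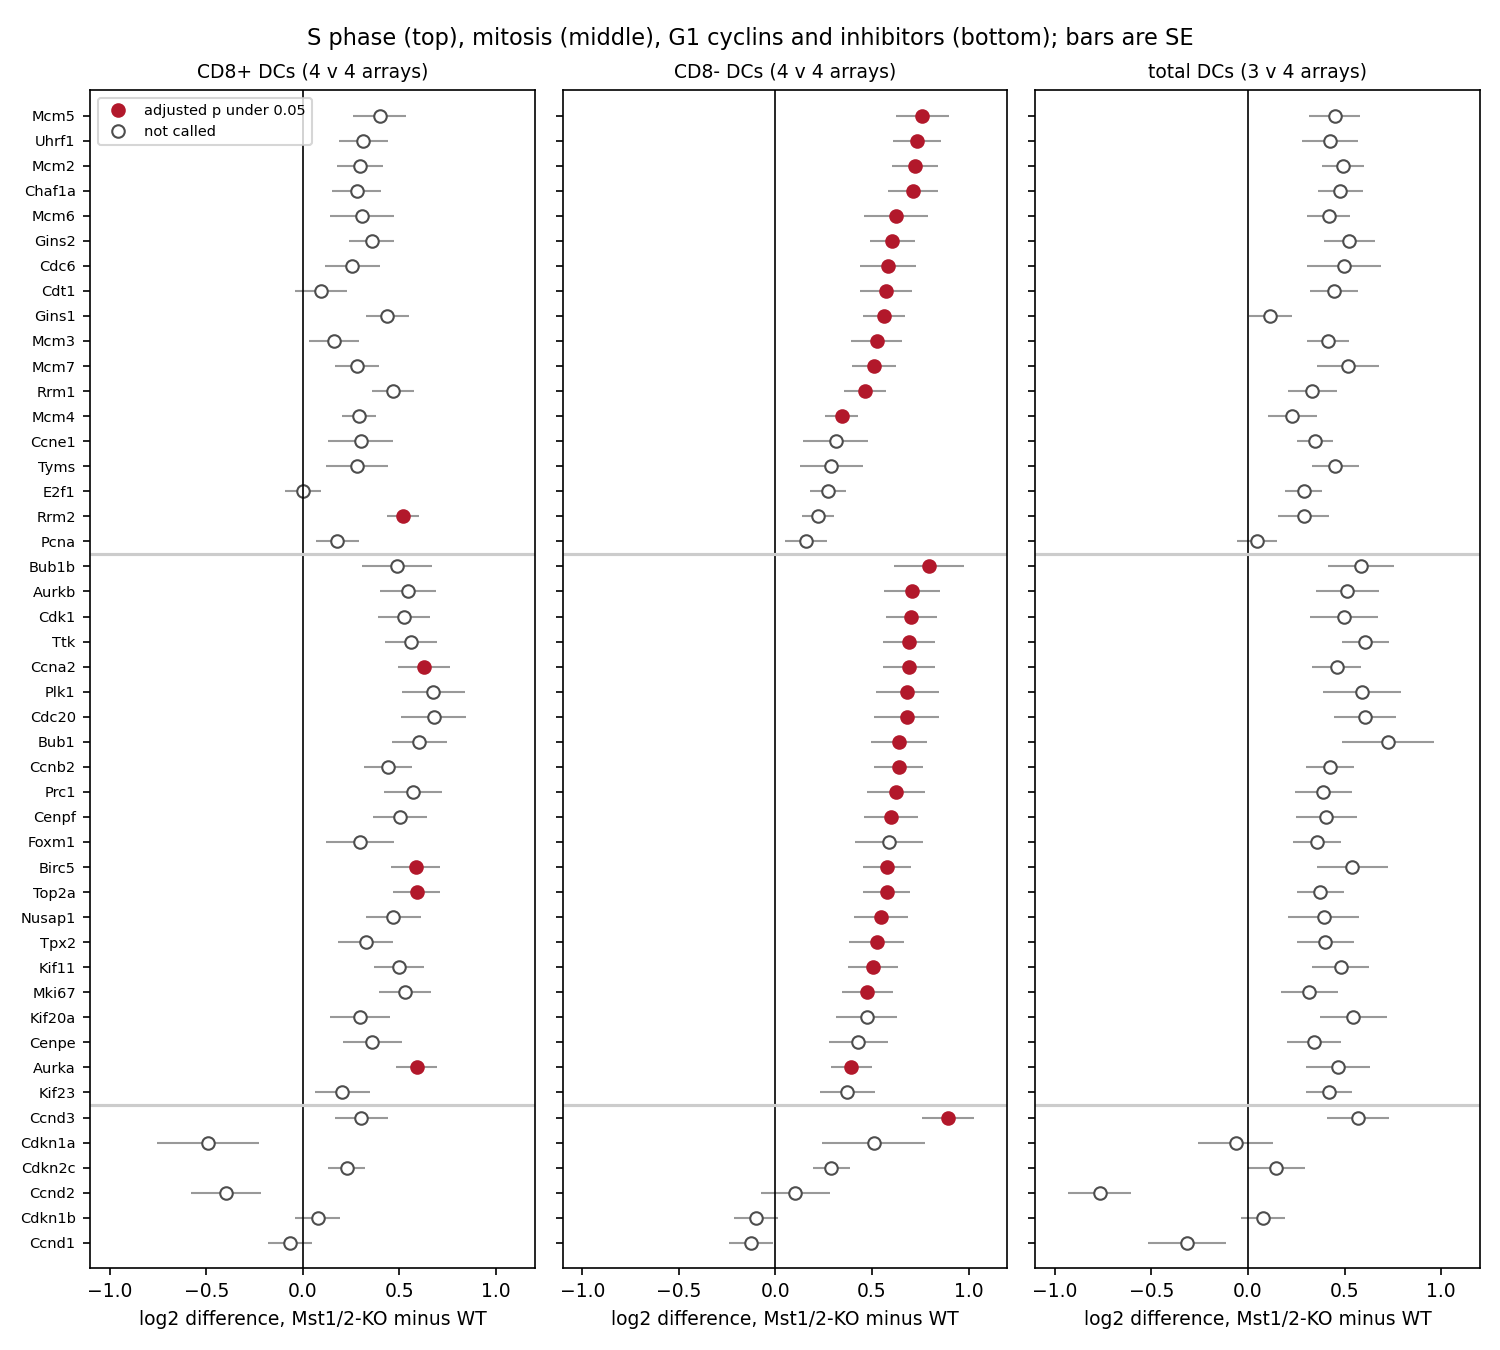
Log2 difference, Mst1/2-KO minus WT (x axis), with its SE for each of the 46 members (y axis, S phase at the top, then mitosis, then G1 genes) in CD8+, CD8- and total DCs. Filled points have an adjusted p under 0.05: 5 members in CD8+ DCs, 32 in CD8- DCs and 0 in total DCs.

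The other cell cycle genes, in lists that hold none of the members, moved alongside them in CD8- DCs. Of 45 other replication genes 15 rose and 1 fell (median 0.39), where 3.9% of all genes rose and 2.79% fell. Cdca7, which recruits the chromatin remodeller Hells, rose by 1.09, the helicase factor Cdc45 by 0.72 and the initiation factor Mcm10 by 0.69, and the GINS subunit Gins3 fell by 0.71. Of 55 other mitosis genes 31 rose and 0 fell (median 0.51), led by the cytokinesis gene Anln (0.96), the spindle gene Ckap2l (0.93), Racgap1 of centralspindlin (0.82) and the kinetochore gene Spc24 (0.78). Of 31 other regulators 9 rose and 1 fell (median 0.27). E2f8, a repressor of the E2F family, rose by 0.93, the INK4 inhibitor Cdkn2d by 0.57 and the checkpoint kinase Chek1 by 0.52, and the INK4 inhibitor Cdkn2b fell by 0.75.

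Markers of the DC subsets and of other cells also moved with genotype in the CD8- arrays, where 3.9% of all genes rose and 2.79% fell. Of 9 plasmacytoid DC markers 4 rose, Cox6a2 by 3.73, Tcf4 by 1.08 and Bst2 by 1.06, and the list averaged 8.08 (7.83 to 8.22) in Mst1/2-KO and 7.26 (6.99 to 7.49) in WT. Of 8 CD8- DC markers, those of the sorted cells themselves, 5 fell and 1 rose. The largest differences were those of Cd4 (-2.03), Esam (-1.55) and Tlr5 (-1.32). That list averaged 8.40 (8.21 to 8.57) in Mst1/2-KO and 9.25 (9.18 to 9.35) in WT. Of 8 CD8+ DC markers 4 rose and 1 fell, among them Irf8 (0.91), Xcr1 (0.84) and Ly75 (-0.95), and the list averaged 7.82 (7.51 to 8.0) in Mst1/2-KO and 7.46 (7.20 to 7.76) in WT. Of 12 macrophage markers 1 rose and 1 fell, Ly6c2 and Adgre1 (-1.05). Of 11 precursor markers, Ly6c2 rose by 1.94, Myb rose by 0.93 and Kit fell by 0.90, and the list averaged 6.90 (6.82 to 6.95) in Mst1/2-KO and 6.70 (6.62 to 6.82) in WT. The B cell list, with 3 of 9 genes lower, averaged 4.60 in Mst1/2-KO and 5.04 in WT, and the T cell list, with 1 of 8 lower, averaged 5.35 and 5.56. The mean of Y-linked genes was 4.65 (4.23 to 4.96) in Mst1/2-KO and 5.26 (5.13 to 5.37) in WT. What part these shifts have in the cell cycle differences was not tested.

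In CD8+ DCs the same classes leaned the same way, and fewer genes passed the test. Of the 46 members 5 rose and 0 fell, where 0.234% of all genes rose and 0.654% fell: Rrm2 of S phase, and Ccna2, Top2a, Aurka and Birc5 of mitosis. The S phase median was 0.29 with 17 of 18 differences above 0, and the mitosis median 0.53 with 22 of 22 above 0, against 0.00 and 51.5% over all genes. S phase genes averaged 7.27, 7.08, 7.27 and 7.54 in Mst1/2-KO CD8+ arrays, against 7.02, 7.06, 6.95 and 6.97 in WT. For mitosis genes the averages were 7.08, 7.04, 7.32 and 7.65 in Mst1/2-KO, against 6.72, 6.79, 6.74 and 6.85 in WT. Mst1/2-KO replicate 4 was again the highest array, and replicate 2 lay only just above the WT arrays in S phase genes. Without Mst1/2-KO CD8+ replicate 2, 13 members were called, and without its replicate 3 or 4, 2 each. Without WT CD8+ replicate 1 or 2, 2 and 3 were called.

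Rrm2 had 8.63, 8.60, 8.72 and 8.70 in Mst1/2-KO CD8+ arrays, against 8.05, 8.23, 8.33 and 7.97 in WT. The groups did not overlap, and Rrm2 rose 1.43-fold (0.52 ± 0.08, adjusted p = 0.0033), with 0.45 at its second probe set. Rrm1 had 8.03, 7.87, 8.08 and 8.37 in Mst1/2-KO, against 7.75, 7.78, 7.37 and 7.58 in WT. It was free of overlap, and its 0.47 ± 0.11 did not pass (adjusted p = 0.0515). At the low end, E2f1 had 5.04, 5.17, 5.14 and 5.03 in Mst1/2-KO, against 5.39, 4.92, 5.03 and 5.04 in WT, a difference of -0.00. Cdt1, at 0.09, was the next smallest among S phase genes.

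Of the mitosis genes, Ccna2 had 8.01, 7.89, 8.22 and 8.62 in Mst1/2-KO CD8+ arrays, against 7.40, 7.42, 7.72 and 7.68 in WT. Its groups did not overlap, and it rose 1.54-fold (0.63 ± 0.13, adjusted p = 0.0321). Top2a, the topoisomerase that untangles sister chromatids, had 8.69, 8.54, 8.64 and 9.12 in Mst1/2-KO, against 8.09, 8.20, 8.23 and 8.10 in WT. It rose by 0.59 ± 0.12 without overlap (adjusted p = 0.0269). A pair of further probe sets shared by Top2a and Taf1d lay near 0, at 0.06 and -0.02. In CD8- DCs, where Top2a was called higher too, the same probe sets differed by 0.01 and -0.11. Aurka, the spindle pole kinase, had 6.75, 6.58, 6.94 and 7.15 in Mst1/2-KO, against 6.21, 6.41, 6.19 and 6.25 in WT. Its arrays were separate, with 0.59 ± 0.11 (adjusted p = 0.00882). Birc5, survivin, which targets Aurkb to centromeres, had 7.24, 7.35, 7.61 and 7.71 in Mst1/2-KO, against 6.57, 7.05, 6.92 and 7.04 in WT. No Birc5 array of WT reached an Mst1/2-KO array, and the rise was 0.58 ± 0.13 (adjusted p = 0.0344).

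The largest differences in CD8+ DCs were not called. The checkpoint target Cdc20 differed by 0.68 ± 0.17 (adjusted p = 0.0731) and Plk1 by 0.67 ± 0.16 (adjusted p = 0.0643). Plk1 had 6.44, 6.56, 6.87 and 7.30 in Mst1/2-KO, against 5.81, 6.09, 6.12 and 6.45 in WT. The highest WT array lay above the lowest Mst1/2-KO array, and each group spanned a wide range. All Mst1/2-KO CD8+ arrays exceeded all WT arrays for 20 members, 5 of S phase and 15 of mitosis, where 3.3% of all genes did. At an unadjusted p under 0.05, 31 members were higher and 1 was lower, where 5.64% of all genes were higher. At that p, 1094 of all 22180 genes were lower. Rrm2 and Aurka were called without each array in turn, and Rrm2 alone under each other setting tried.

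In the lists of other cell cycle genes, 5 rose and 1 fell in CD8+ DCs, where 0.234% of all genes rose and 0.654% fell. Of 45 other replication genes the dUTPase gene Dut rose by 0.38 and none fell. Of 55 other mitosis genes 4 rose and none fell: the kinesin Kif18b (0.70), the kinetochore genes Nuf2 (0.66) and Cenpk (0.52), and Cdca3 (0.54). Of 31 regulators cyclin G2 (Ccng2), linked to cell cycle arrest, fell by 0.82 (adjusted p = 0.00244). No marker in the plasmacytoid DC, precursor, T cell, B cell, NK cell, plasma cell, macrophage, neutrophil or erythroid lists was called in limma, and the plasmacytoid list averaged 6.71 (6.65 to 6.78) in Mst1/2-KO and 6.75 (6.67 to 6.87) in WT. Of 8 CD8- DC markers 1 rose, Itgam by 0.71, and the median difference of that list was -0.31. The mean of Y-linked genes was 4.65 (4.18 to 5.03) in Mst1/2-KO and 5.06 (4.92 to 5.33) in WT. The part of Itgam and of the Y-linked genes' shift in the CD8+ differences was not tested.

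The genotype differences of the sorted subsets were set against each other in the same fit, as the CD8- difference minus the CD8+ difference. None of the 46 members passed this test in limma, where 0.559% of all genes did. At an unadjusted p under 0.05, 6 members were higher and 1 lower, where 4.78% of all genes were higher and 970 of all 22180 lower. So the 32 calls in CD8- against 5 in CD8+ DCs are not shown to be different effects. Aurka, Birc5, Ccna2 and Top2a were called in both, which is 80% of the 5 and 12.5% of the 32. The differences exceeded 0 for 15 of 18 S phase genes (median 0.26) and for 18 of 22 mitosis genes (median 0.07), beside 50.1% of all genes and a median of 0.00. In S phase genes the lowest p were those of Cdt1, at 0.48 ± 0.19 (adjusted p = 0.386), and Rrm2, at -0.30 ± 0.12 (adjusted p = 0.391). In mitosis genes they were those of Aurka, at -0.20 ± 0.15 (adjusted p = 0.784), and Bub1b, at 0.31 ± 0.26 (adjusted p = 0.802). Ccnd3 stood at 0.59 ± 0.19 (adjusted p = 0.234) and Cdkn1a at 1.00 ± 0.38 (adjusted p = 0.351). Without WT CD8+ replicate 1 or WT CD8- replicate 1, 1 member passed. None of the 131 other cell cycle genes did, with 8 higher and 2 lower at an unadjusted p under 0.05.

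Between the subsets, CD8+ minus CD8-, most members that passed were lower in CD8+ DCs, and they were mainly mitosis and G1 genes. In Mst1/2-KO, 12 members were lower in CD8+ than in CD8- DCs and none was higher, where 9.3% of all genes were lower and 9.93% higher. In WT, 2 members were higher and 10 lower, where 11% of all genes were higher and 10% lower. The S phase median was -0.10 in Mst1/2-KO and 0.07 in WT, and the mitosis median -0.27 in Mst1/2-KO and -0.21 in WT, while all genes had 0.03 in WT. These comparisons use the arrays of the genotype comparisons, so the values are not independent of those above. Omitting Mst1/2-KO CD8+ replicate 4 raised the calls in Mst1/2-KO to 20. In WT, omitting CD8+ replicate 4 left 6, and omitting CD8- replicate 3 or 4 left 7 each. Of the 12 calls in each genotype, 7 in Mst1/2-KO and 6 in WT were made without each array in turn. Over the 8 omissions in WT, Prc1 was called in 0, Mcm2, Cdkn1b and Cdkn2c in 1 each, Aurka in 3 and Rrm2 in 7. In Mst1/2-KO, Cenpe was called in 2 of 8, Prc1 in 4, Ccnb2 in 5, and Uhrf1 and Cdkn2c in 7 each. Same-numbered WT arrays deviated together and were taken as pairs. A further fit of all sorted-subset arrays had the replicate number as a block, shared by both genotypes. Outside the WT subsets same-numbered arrays were not taken as pairs, so this was not a test paired within WT alone. In that fit 2 members were higher and 12 lower in WT. The added ones were Mki67 (adjusted p = 0.0393) and Cenpe (adjusted p = 0.0202). Each of the 14 members called in that fit differed in the same direction in all 4 pairs. They were picked by calls on these same arrays, so this is no further support. The share of all genes that did so was not counted.

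**Figure D4:**
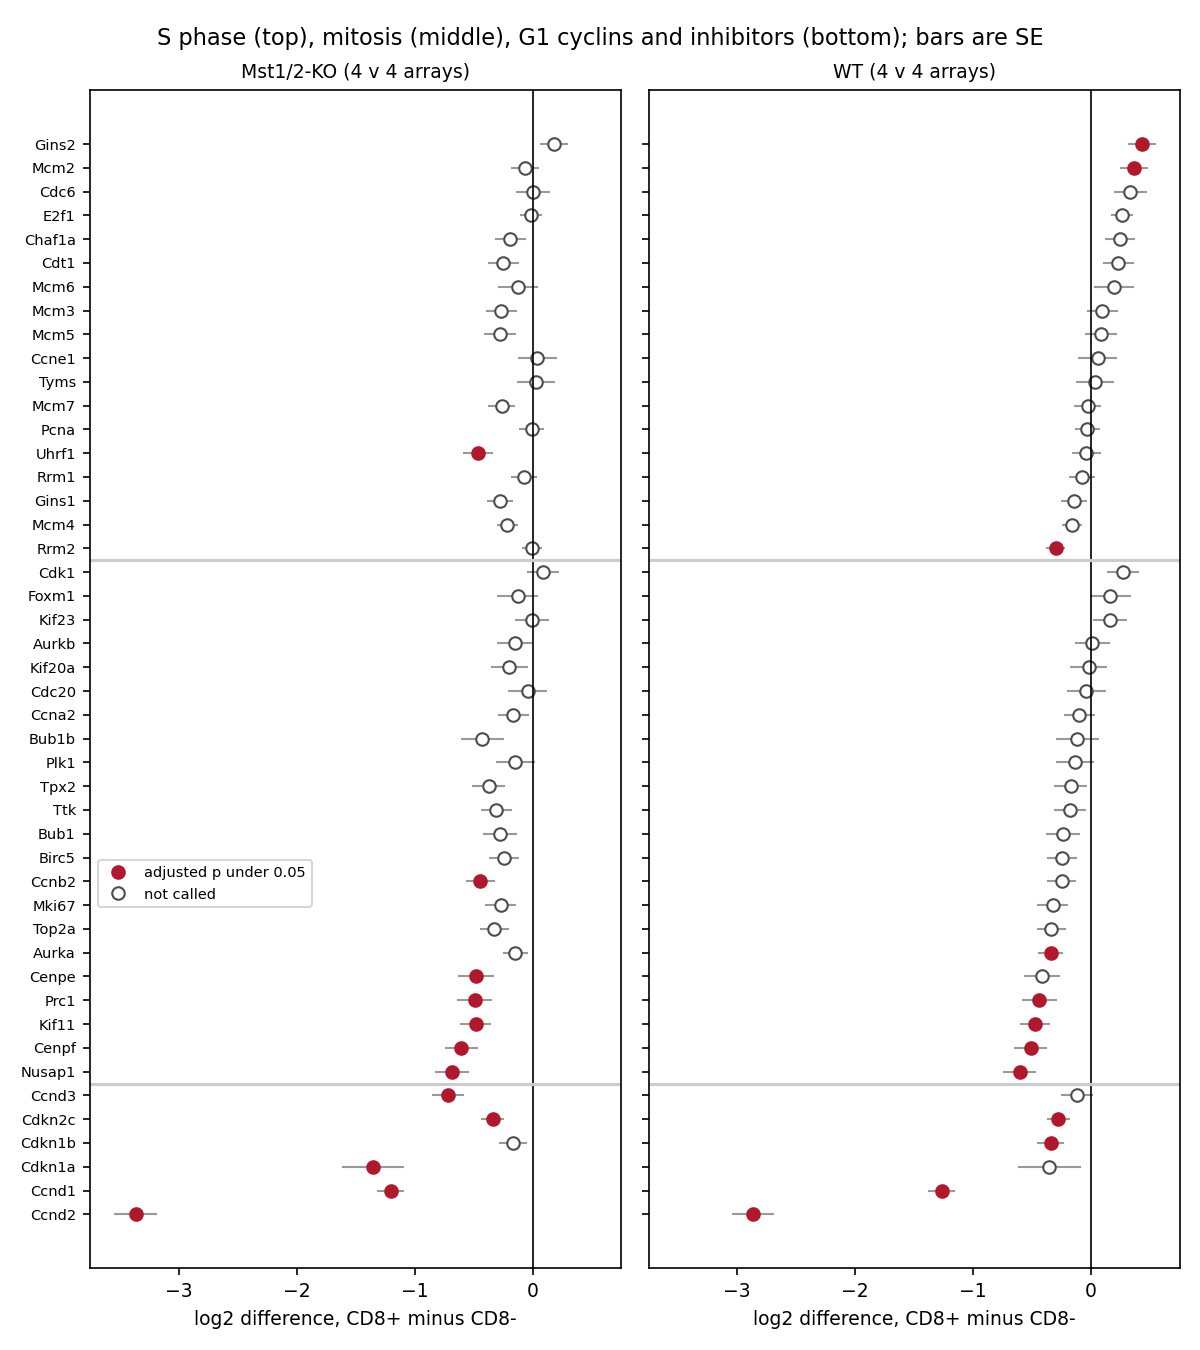
Log2 difference, CD8+ minus CD8- (x axis), with its SE for the 46 members (y axis, S phase at the top, then mitosis, then G1 genes) in Mst1/2-KO (left) and WT (right). Filled points have an adjusted p under 0.05, and Ccnd2, at -3.36 in Mst1/2-KO and -2.86 in WT, lies farthest from 0.

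Among mitosis genes, Nusap1, a microtubule-bundling protein of the spindle, had the largest subset difference in both genotypes. In Mst1/2-KO it had 7.35, 7.47, 7.36 and 7.78 in CD8+ arrays, against 8.14, 8.16, 7.76 and 8.64 in CD8- arrays. It fell by 0.68 (adjusted p = 0.0017), though the highest CD8+ array was above the lowest CD8- array. In WT it had 6.98, 7.06, 7.05 and 7.01 in CD8+ arrays, against 7.64, 7.42, 7.78 and 7.68 in CD8- arrays. There the groups were apart and Nusap1 fell by 0.61 (adjusted p = 0.00421). Cenpf, of the outer kinetochore, had 6.02, 6.14, 6.28 and 6.58 in Mst1/2-KO CD8+ arrays, against 6.78, 6.66, 6.85 and 7.14 in CD8- arrays. In WT it had 5.53, 5.69, 5.80 and 5.98 in CD8+ arrays, against 5.94, 6.37, 6.33 and 6.41 in CD8- arrays. Cenpf was separate in Mst1/2-KO, where it fell by 0.60 (adjusted p = 0.00417), and overlapped in WT, where it fell by 0.51 (adjusted p = 0.0128). In WT it was lower in CD8+ in 4 of 4 same-numbered pairs, which is no further support, since it was picked by its call on these arrays.

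The spindle motor Kif11 had 7.66, 7.73, 7.90 and 8.36 in Mst1/2-KO CD8+ arrays, against 8.42, 8.21, 8.28 and 8.66 in CD8- arrays. In WT it had 7.49, 7.41, 7.34 and 7.41 in CD8+ arrays, against 7.87, 7.89, 8.04 and 7.75 in CD8- arrays. Kif11 fell by 0.48 in both genotypes (adjusted p = 0.0122 in Mst1/2-KO and 0.0123 in WT), and its arrays overlapped in Mst1/2-KO but not in WT. Prc1, which bundles the midzone of the spindle, had 6.52, 6.42, 7.21 and 6.95 in Mst1/2-KO CD8+ arrays, against 7.24, 7.11, 7.09 and 7.63 in CD8- arrays. Its WT values were 6.18, 6.27, 6.17 and 6.20 in CD8+ arrays, against 6.57, 6.65, 6.85 and 6.50 in CD8- arrays. Prc1 fell by 0.49 in Mst1/2-KO (adjusted p = 0.029), with overlap, and by 0.44 in WT (adjusted p = 0.0493), without. Its WT call was lost whichever array was omitted (0 of 8 fits).

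Further mitosis genes passed in 1 genotype, and the genotypes are not shown to differ there, since no member passed the test of that difference. In Mst1/2-KO, Cenpe had 6.88, 6.82, 6.88 and 7.58 in CD8+ arrays, against 7.49, 7.37, 7.46 and 7.77 in CD8- arrays. Its CD8+ replicate 4 overlapped the CD8- arrays, and it fell by 0.48 (adjusted p = 0.0335). Ccnb2, cyclin B2, had 7.82, 7.78, 8.12 and 8.32 in Mst1/2-KO CD8+ arrays, against 8.33, 8.38, 8.29 and 8.81 in CD8- arrays. It fell by 0.44 (adjusted p = 0.0169), and the highest CD8+ array lay just above the lowest CD8- array. In WT, Aurka had 6.21, 6.41, 6.19 and 6.25 in CD8+ arrays, against 6.46, 6.54, 6.69 and 6.73 in CD8- arrays. It fell by 0.34 with no overlap (adjusted p = 0.0287).

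Of the 18 S phase genes, 1 passed between subsets in Mst1/2-KO and 3 in WT, beside 19.2% of all genes in Mst1/2-KO and 21% in WT in either direction. In Mst1/2-KO Uhrf1 had 7.44, 7.30, 7.63 and 7.88 in CD8+ arrays, against 7.99, 7.79, 7.94 and 8.39 in CD8- arrays. It fell by 0.46 (adjusted p = 0.0132), and CD8+ replicate 4 overlapped the CD8- arrays. Mcm4, with the next smallest p, had 8.35, 8.05, 8.18 and 8.39 in CD8+ arrays, against 8.46, 8.35, 8.41 and 8.61 in CD8- arrays, and its difference of -0.21 did not pass. In WT, Gins2 had 7.53, 7.54, 7.37 and 7.27 in CD8+ arrays, against 7.17, 6.79, 7.02 and 7.0 in CD8- arrays, and was higher by 0.43 ± 0.12 (adjusted p = 0.0117) with no overlap. Mcm2 had 7.25, 7.19, 7.11 and 7.09 in WT CD8+ arrays, against 7.03, 6.78, 6.85 and 6.52 in CD8- arrays. It was higher by 0.36 ± 0.12, without overlap (adjusted p = 0.0392). Rrm2 had 8.05, 8.23, 8.33 and 7.97 in WT CD8+ arrays, against 8.37, 8.37, 8.52 and 8.51 in CD8- arrays. It fell by 0.30 (adjusted p = 0.0142), while its second probe set differed by 0.02.

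Over all genes, 9.93% were higher and 9.3% lower in CD8+ than in CD8- DCs of Mst1/2-KO, and 11% were higher and 10% lower in WT. Of the 45 other replication genes, 1 was higher and 4 lower in CD8+ than in CD8- DCs of Mst1/2-KO, and 2 were higher and 2 lower in WT. Of the 31 regulators, 2 were higher and 7 lower in Mst1/2-KO, and 8 were higher and 7 lower in WT. Gins3 differed by 0.09 in Mst1/2-KO and did not pass there, and fell by 1.02 in WT (adjusted p = 0.000494). Hells, a chromatin remodeller needed for DNA methylation, was higher in CD8+ DCs by 1.15 in Mst1/2-KO and 1.52 in WT. The phosphatase Cdc25a, which activates Cdk2, was higher by 1.00 in Mst1/2-KO and 1.15 in WT. The retinoblastoma gene Rb1 fell by 0.74 in Mst1/2-KO and by 0.92 in WT, and Cdkn2d fell by 1.09 and by 0.83. Of the 55 other mitosis genes, 1 was higher and 18 lower in Mst1/2-KO, with the largest fall that of Depdc1a (-0.73), and 1 was higher and 10 lower in WT, led by Kif18a (-0.75). Markers of other cells that passed were mostly lower in CD8+ arrays. Macrophage markers were lower for 9 of 12 genes in Mst1/2-KO and 10 of 12 in WT, with none higher, and NK cell markers for 3 of 7 and 5 of 7, with none higher. B cell markers were mixed, with 1 higher in each genotype, and 3 of 9 lower in Mst1/2-KO and 4 of 9 in WT; Ms4a1 was higher by 1.37 in Mst1/2-KO. Of 11 precursor markers, 4 were lower in each genotype and 2 higher in WT. Of 8 plasma cell markers, 1 was higher and 2 lower in each. T cell markers were lower for 7 of 8 genes in each genotype, averaging 4.54 in WT CD8+ and 5.56 in WT CD8- arrays. Plasmacytoid DC markers averaged 6.71 in Mst1/2-KO CD8+ and 8.08 in Mst1/2-KO CD8- arrays. The part of these markers in the subset differences was not tested.

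Of the G1 cyclins and inhibitors, Ccnd2 and Ccnd1 set the subsets apart in both genotypes. Ccnd2, cyclin D2, had 5.99, 5.87, 6.48 and 6.19 in Mst1/2-KO CD8+ arrays, against 9.35, 9.48, 9.84 and 9.31 in Mst1/2-KO CD8- arrays. In WT it had 6.27, 6.29, 6.91 and 6.65 in CD8+ arrays, against 8.91, 9.50, 9.58 and 9.58 in CD8- arrays. It was thus lower in CD8+ DCs by a wide gap in both genotypes, 10.3-fold in Mst1/2-KO (-3.36 ± 0.18, adjusted p = 2.104e-10) and 7.28-fold in WT (-2.86 ± 0.18, adjusted p = 1.403e-09). Ccnd1, cyclin D1, had 9.07, 8.70, 8.95 and 8.98 in Mst1/2-KO CD8+ arrays, against 10.17, 10.05, 10.16 and 10.13 in CD8- arrays. Its WT values were 8.66, 9.03, 9.05 and 9.22 in CD8+ arrays, against 10.01, 10.27, 10.39 and 10.34 in CD8- arrays. Ccnd1 was 2.3-fold lower in CD8+ DCs of Mst1/2-KO (adjusted p = 3.026e-07) and 2.4-fold lower in those of WT (adjusted p = 1.452e-07), with no overlap.

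Cyclin D3 (Ccnd3) was the G1 gene that rose with genotype. It had 7.94, 7.73, 7.95 and 8.05 in Mst1/2-KO CD8- arrays, against 6.86, 7.0, 7.10 and 7.14 in WT CD8- arrays. The gap was the widest of all 46 members in CD8- DCs, 1.86-fold (0.89 ± 0.14, adjusted p = 0.00063). In CD8+ DCs it had 7.24, 7.08, 7.24 and 7.26 in Mst1/2-KO arrays, against 6.36, 7.17, 7.05 and 7.03 in WT. Those groups overlapped, and the difference of 0.30 did not pass (adjusted p = 0.433). Between subsets, Ccnd3 fell by 0.71 in CD8+ DCs of Mst1/2-KO (adjusted p = 0.000803). By genotype in CD8- DCs, Ccnd1 differed by -0.13 and Ccnd2 by 0.10, and neither passed.

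Among the inhibitors, Cdkn2c, which encodes the INK4 protein p18, had 6.51, 6.31, 6.49 and 6.62 in Mst1/2-KO CD8- arrays, against 6.12, 6.22, 6.29 and 6.14 in WT CD8- arrays. Its groups lay apart, and its difference of 0.29 ± 0.09 did not pass (adjusted p = 0.0837). In CD8+ arrays it had 6.09, 6.09, 6.21 and 6.20 in Mst1/2-KO, against 5.63, 5.95, 6.12 and 5.96 in WT, which overlapped at a difference of 0.23 (adjusted p = 0.389). Cdkn2c was lower in CD8+ than in CD8- DCs, by -0.34 in Mst1/2-KO and -0.28 in WT (adjusted p = 0.0164 and 0.0475). Cdkn1a, p21, had 9.26, 9.16, 9.46 and 9.06 in Mst1/2-KO CD8+ arrays, against 10.76, 10.26, 10.93 and 10.40 in Mst1/2-KO CD8- arrays. It was 2.55-fold lower in these CD8+ DCs without overlap (adjusted p = 0.00104). By genotype, Cdkn1a differed by -0.49 ± 0.27 in CD8+ DCs (adjusted p = 0.56) and by 0.51 in CD8- DCs (adjusted p = 0.338), where its WT arrays ranged from 9.24 to 11.01. Cdkn1b, p27, had 9.46, 9.04, 9.08 and 9.03 in WT CD8+ arrays, against 9.70, 9.46, 9.43 and 9.40 in WT CD8- arrays. CD8+ replicate 1 overlapped the CD8- arrays, and Cdkn1b fell by 0.34 (adjusted p = 0.0438). That call held in 1 of 8 fits with 1 array omitted. Cdkn1b was lower in CD8+ in 4 of 4 same-numbered pairs, which is no further support, since it was picked by its call on these arrays. In the fit with the replicate number as a block shared by both genotypes, its adjusted p was 0.00274.

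**Figure D5:**
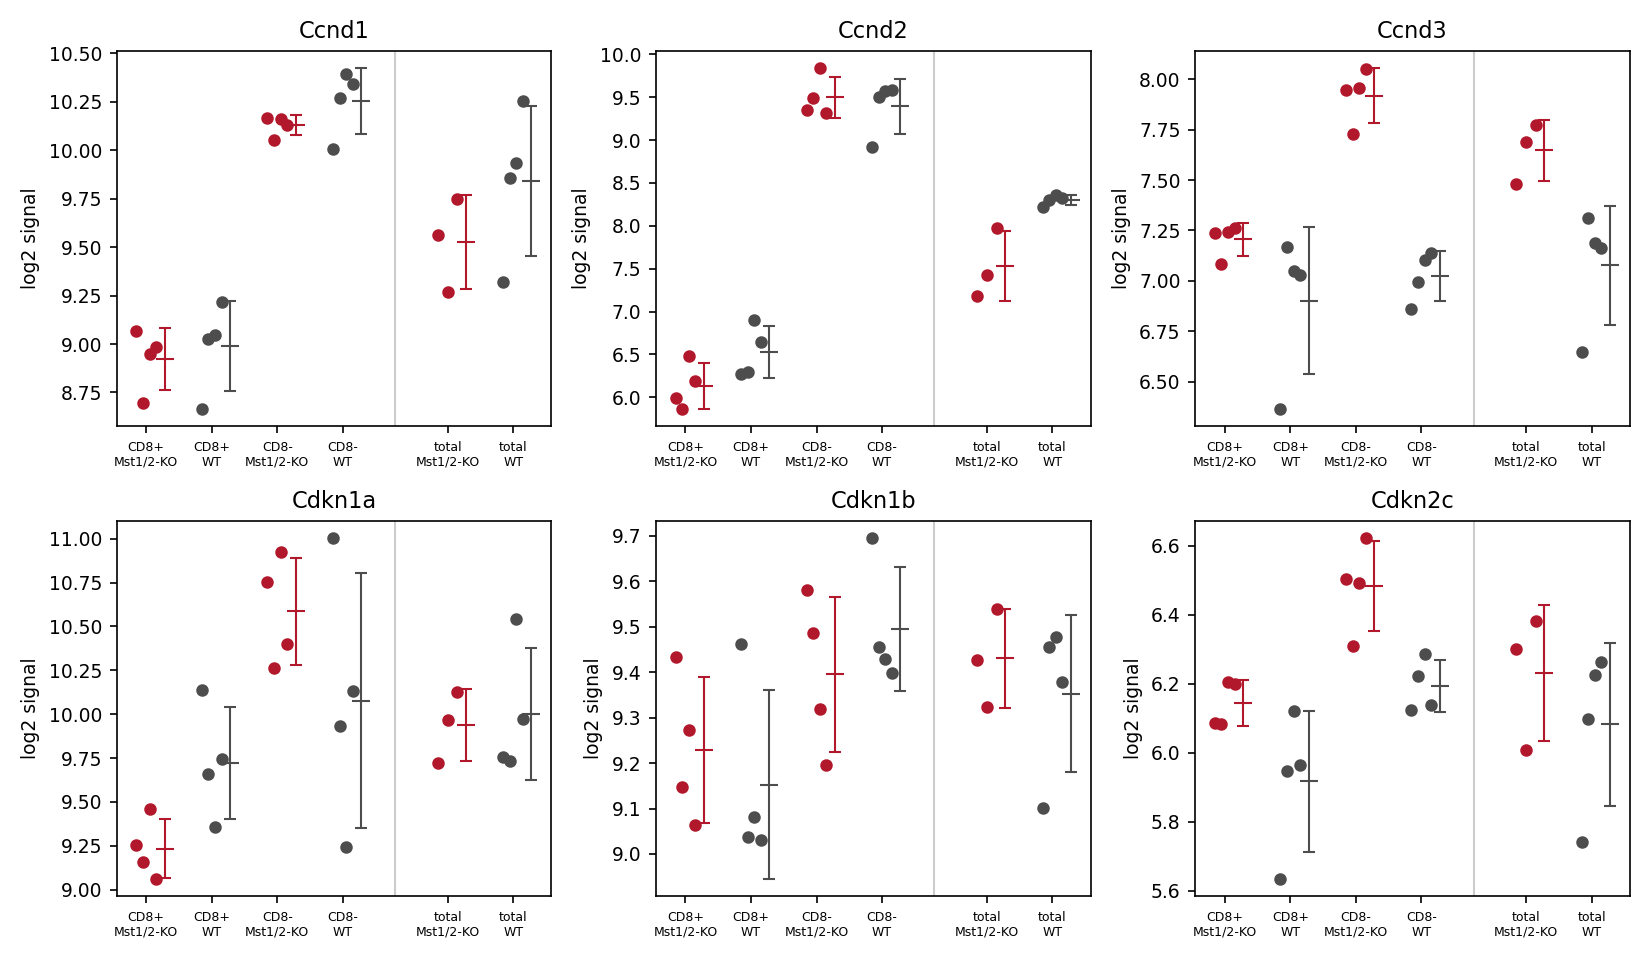
Log2 signal (y axis) of the 6 G1 cyclins and inhibitors, with a dot per array and the mean ± SD beside each group (x axis: Mst1/2-KO left of WT in CD8+, CD8- and total DCs). Ccnd2 lies at 5.87 to 6.91 in the CD8+ arrays and at 8.91 to 9.84 in the CD8- arrays.

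In total DCs, none of the 46 members passed in limma, where 0.848% of all genes did, and the S phase and mitosis genes leaned upward. All 40 had differences above 0, beside 50.7% of all genes, with medians of 0.42 for S phase and 0.46 for mitosis. At an unadjusted p under 0.05, 35 members were higher and 1 lower, where 7.64% of all genes were higher and 1234 of all 22180 lower. The Mst1/2-KO arrays exceeded all WT arrays for 27 members, where 8.26% of all genes did. S phase genes averaged 7.37, 7.42 and 7.34 in Mst1/2-KO total DCs, against 6.84, 6.93, 7.06 and 7.18 in WT. Mitosis genes averaged 7.39, 7.53 and 7.23 in Mst1/2-KO, against 6.65, 6.78, 7.02 and 7.19 in WT. Neither class overlapped, and the WT arrays were spread more widely than the Mst1/2-KO arrays. Without Mst1/2-KO total replicate 3, 1 member, lower, was called.

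Ttk came nearest to the threshold in total DCs, with 6.18, 5.93 and 5.94 in Mst1/2-KO arrays, against 5.33, 5.45, 5.23 and 5.63 in WT. Its arrays were apart, at 0.61 ± 0.12 (adjusted p = 0.0539). Cdc20 had 6.66, 6.81 and 6.36 in Mst1/2-KO, against 5.65, 5.96, 6.17 and 6.24 in WT, a difference of 0.61 without overlap (adjusted p = 0.133). In S phase genes, Mcm2 had 7.48, 7.41 and 7.49 in Mst1/2-KO, against 6.76, 6.99, 6.98 and 7.14 in WT. The groups were separate, at 0.49 ± 0.11 (adjusted p = 0.0718). Chaf1a had 6.21, 6.20 and 6.20 in Mst1/2-KO, against 5.69, 5.57, 5.63 and 6.01 in WT, and differed by 0.48 (adjusted p = 0.104), again with no overlap.

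Of the G1 genes in total DCs, 3 had differences below 0: Ccnd2, Ccnd1 at -0.32 (adjusted p = 0.58) and Cdkn1a at -0.06. Ccnd2 had 7.19, 7.43 and 7.98 in Mst1/2-KO total DCs, against 8.22, 8.30, 8.36 and 8.32 in WT. All Mst1/2-KO arrays lay below all WT arrays, as they did for 5.49% of all genes, and the difference of -0.77 ± 0.16 did not pass (adjusted p = 0.0693). Ccnd3 had 7.48, 7.69 and 7.77 in Mst1/2-KO, against 6.65, 7.31, 7.19 and 7.16 in WT. These arrays did not overlap either, at 0.57 (adjusted p = 0.148). Total DCs mix the subsets, and the CD8- DC markers averaged 6.87 (6.51 to 7.16) in Mst1/2-KO and 7.62 (7.32 to 7.88) in WT total DCs. The plasmacytoid markers averaged 6.96 (6.54 to 7.59) in Mst1/2-KO and 7.36 (6.85 to 7.78) in WT. The part of the mix of subsets in these differences was not tested. Of the other cell cycle genes, Hells rose by 0.68 (adjusted p = 0.0123) and Cdkn2b fell by 0.66 (adjusted p = 0.0338).

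In experiment 1, with anti-CD40 in all arrays, DCs labelled Rag1-KO p38-KO were compared with Rag1-KO DCs, and no member passed the test. In limma 0 of the 46 members and 0 of all genes (0%) passed. At an unadjusted p under 0.05, 0 members were higher, where 4.51% of all genes were, and 1 was lower, where 3.9% were. S phase genes averaged 7.03, 6.97 and 7.47 in the arrays labelled Rag1-KO p38-KO, against 7.0, 7.04, 7.37 and 7.21 in Rag1-KO arrays. Mitosis genes averaged 6.79, 6.84 and 7.60 in those labelled Rag1-KO p38-KO, against 6.89, 7.02, 7.44 and 7.42 in Rag1-KO. The groups overlapped in both classes, and replicate 3 of those labelled Rag1-KO p38-KO was the highest array of both classes. The medians were 0.01 for S phase, -0.11 for mitosis and -0.13 for G1 genes. Over all 46 members the median was -0.06; it was -0.29 without replicate 3 of those labelled Rag1-KO p38-KO, and above 0 without its replicate 1 (0.05) or 2 (0.03) or Rag1-KO replicate 3 (0.02).

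Cdkn1a was the member with the lowest p in experiment 1. It had 9.38, 9.30 and 9.77 in the arrays labelled Rag1-KO p38-KO, against 9.94, 9.89, 10.59 and 10.46 in Rag1-KO arrays. The groups were apart, as 3.6% of all genes were in that direction, and the difference of -0.74 ± 0.21 did not pass (adjusted p = 0.506). Mki67, the proliferation marker Ki-67, had 8.27, 8.30 and 9.02 in those labelled Rag1-KO p38-KO, against 8.59, 8.59, 9.21 and 8.88 in Rag1-KO, and overlapped. Gins1 had 5.61, 5.68 and 6.24 in those labelled Rag1-KO p38-KO, against 5.96, 5.96, 6.41 and 5.96 in Rag1-KO. Gins1 and E2f1 each have 3 equal values in Rag1-KO. Values equal to 5 decimals in 2 or more arrays were found for 34.3% of all genes in Rag1-KO and 24% in those labelled Rag1-KO p38-KO, against at most 0.446% in a group of the other experiments. In 3 or more arrays they were found for 11% of all genes in Rag1-KO and 4.69% in those labelled Rag1-KO p38-KO. The cause was not tested. Neutrophil markers averaged 4.65 (3.67 to 5.46) in the arrays labelled Rag1-KO p38-KO and 6.10 (5.67 to 6.56) in Rag1-KO, and their part was not tested.

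Experiment 2 set 2 anti-CD40 arrays of Rag1-KO DCs against 1 non-stimulated array, whose spread is taken from the other arrays of both anti-CD40 experiments. In limma 0 of the 46 members passed, where 0.0361% of all genes did, and 0 had an unadjusted p under 0.05, where 5.89% of all genes were higher and 7.22% lower at that p. The members were mostly higher with anti-CD40: 39 of 46 differences lay above 0, as did 48.1% of all genes, with medians of 0.32 for S phase and 0.36 for mitosis beside -0.01 for all genes. Both anti-CD40 arrays lay above the non-stimulated array for 35 members, where 33.1% of all genes did. The anti-CD40 arrays were unlike each other, with mitosis genes averaging 7.36 in replicate 1 and 6.87 in replicate 3, against 6.74 without anti-CD40. S phase genes averaged 7.28 and 7.15, against 6.94. The median over all 46 members was 0.14 without anti-CD40 replicate 1 and 0.47 without replicate 3. Top2a had 9.09 and 8.54 with anti-CD40, against 8.06 without, and Mki67 had 9.35 and 8.74 with anti-CD40, against 8.37 without. Mcm5 had 7.61 and 7.35 with anti-CD40, against 7.0 without, and Chaf1a had 6.11 and 5.74, against 5.30. In Top2a and Mki67 the stimulated arrays differed from each other by more than the lower one did from the non-stimulated array. Ccnd2 had 8.76 and 8.78 with anti-CD40, against 7.75 without (adjusted p = 0.538), and Ccnd1 had 9.59 and 9.54, against 9.16. Neutrophil markers averaged 7.04 with anti-CD40 and 5.69 without, and their part was not tested.

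The same Rag1-KO anti-CD40 arrays were compared with 1 WT anti-CD40 array. None of the 46 members passed in limma, where 0.365% of all genes did, and 0 were higher and 2 lower at an unadjusted p under 0.05, where 7.14% of all genes were higher and 6.9% lower. Of 22 mitosis genes 21 had a difference below 0 (median -0.30), while the S phase median was -0.06, and 48.3% of all genes lay above 0. Mitosis genes averaged 7.36 in Rag1-KO replicate 1 and 6.87 in replicate 3, against 7.37 in WT, so replicate 1 lay close to WT. S phase genes averaged 7.28 and 7.15, against 7.24 in WT. The median over all 46 members was -0.02 without Rag1-KO replicate 3 and -0.32 without replicate 1. For 22 members both Rag1-KO arrays lay below the WT array, where 37.6% of all genes did. Birc5 had 7.29 and 7.02 in Rag1-KO, against 7.77 in WT. Ccnd1 had 9.59 and 9.54 in Rag1-KO, against 10.21 in WT (-0.65, adjusted p = 0.285), and Cdkn2c had 5.93 and 5.97, against 6.54 (-0.59, adjusted p = 0.199). Cyclin E1 ran the other way, with 5.38 and 5.35 in Rag1-KO, against 4.91 in WT. Markers of other cells differed here as well. Fcer2a (-1.62), Cd79a (-1.51) and Ms4a1 (-1.35) of the B cell list fell, as did Cd3e (-1.21) of the T cell list and Jchain (-1.99) of the plasma cell list. The B cell list averaged 4.09 in Rag1-KO and 4.78 in WT, and the plasma cell list 5.17 and 5.30. The T cell list as a whole was higher in Rag1-KO, at 5.04 against 4.88 in WT. Neutrophil markers averaged 7.04 in Rag1-KO and 5.11 in WT, and NK cell markers 5.62 in Rag1-KO and 4.26 in WT. The part of these markers was not tested.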

How the data were processed

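RNA of DCs sorted from mouse spleen was amplified and labelled with biotin, per the labels' protocols. Deposited were log2 values (0.57 to 13.19) of 41155 probe sets on 34 arrays, which the authors had normalized; RMA and Partek 6.6 are named in the submitters' processing notes, and the genome build of the probe sets is not given in the sources used here. Arrays of an experiment have the same digits after the 5th decimal in 98.4% to 99.3% of probe sets, so the values carry a constant per probe set and experiment, and levels were compared within an experiment only. An array has no read depth; the number of arrays limits the precision.

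Of the probe sets, 23521 have exactly 1 gene in the annotation, 1814 several and 15820 none. Only the first kind was used, and for 1082 genes with several probe sets the one with the highest mean was taken, which gave 22180 genes. Groups are those of the labels. Linear models of group means (limma 3.58.1, R 4.3.3, with lmFit and eBayes) were checked on simulated data. The threshold was a Benjamini-Hochberg adjusted p of 0.05 over all genes, and errors of differences are SE. The 16 sorted-subset arrays shared a fit, total DCs used 7 arrays and experiment 1 used 7. Comparisons with a lone array in experiment 2 took their spread from the 11 arrays of both anti-CD40 experiments, under the assumption that a lone array varies as the rest do. Same-numbered CD8+ and CD8- arrays deviated together in WT (r of 0.13 to 0.34 in the 4 pairs), so their numbers were taken to pair. Those of the other groups did not meet the limit of 0.1 in every pair. For Mst1/2-KO CD8+ and CD8- arrays r was 0.09 to 0.21, so the limit was missed narrowly and whether they pair is not known. In the sorted-subset fit the replicate block was nonetheless shared by both genotypes.

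Values of every array are given, per comparison and class, for up to 6 called members with the largest difference, or the 2 with the smallest p where fewer than 2 were called; Plk1, Cdc20 and E2f1 in CD8+ DCs, Pcna and the Cdkn1a, Ccnd1 and Ccnd2 values by genotype were added after their values were seen. Of each other list up to 4 called genes are named, and of each marker list up to 3. Members and lists were chosen with earlier results of these data known. Alternatives were 2 other normalizations, 2 choices of probe sets, a filter on low genes, trended robust variances, smaller fits, a replicate block and omission of each array.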

Additional observations from a re-analysis of the deposited data

Results flagged for a closer look

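Every measured member and the class means were looked at in each group of 4 arrays, and those were singled out where the highest or lowest array lay far from the other 3 by Dixon's criterion. Of 294 such sets of 4 values, 16 met it, where chance gives about 1 in 20. In Mst1/2-KO CD8- DCs, replicate 4 was high for Mcm2 (7.80, others 7.42 to 7.43), Top2a (9.32, others 8.95 to 9.01) and Ccnb2 (8.81, others 8.29 to 8.38). In Mst1/2-KO CD8+ DCs, replicate 4 was high for Cenpe (7.58, others 6.82 to 6.88) and replicate 2 low for Ccnd3 (7.08, others 7.24 to 7.26). In WT CD8+ DCs, Ccne1 was low in replicate 1 (4.96, others 5.21 to 5.25), Uhrf1 was low in replicate 3 (7.14, others 7.28 to 7.29) and Cdkn1b was high in replicate 1 (9.46, others 9.03 to 9.08). In WT CD8- DCs, replicate 3 was high for Rrm1 (7.82, others 7.64 to 7.67) and Bub1 (6.62, others 6.35 to 6.39), and replicate 4 for Aurkb (7.33, others 7.13 to 7.15). There too, Ccnb2 was low in replicate 2 (7.71, others 7.84 to 7.87) and Ccnd2 low in replicate 1 (8.91, others 9.50 to 9.58). In WT total DCs, Tyms was high in replicate 1 (6.65, others 6.55 to 6.57). In Rag1-KO DCs of experiment 1, Gins1 was high in replicate 3 (6.41, the other 3 all 5.96) and E2f1 was low in replicate 4 (4.85, the other 3 all 5.03).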

How the results depend on the processing

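No difference of a member picked by the naming rule above turned its direction while called under any alternative. Differences of the other cell cycle genes and of the markers were not checked for this. The count of members called in Mst1/2-KO CD8+ DCs, 5, moved most. It was 9 after quantile normalization, 10 with genes above the median gene only, 2 with all probe sets tested, 9 with trended robust variances, 1 with only the groups compared and 12 with the replicate block, and it ranged from 2 to 13 with single arrays omitted. In Mst1/2-KO CD8- DCs the 32 calls ranged from 16 to 35 with single arrays omitted and from 24 to 34 under the other settings. The test of the difference between subsets gave 0 to 1 with single arrays omitted and 0 otherwise. For CD8+ minus CD8-, the 12 calls ranged from 8 to 20 with single arrays omitted in Mst1/2-KO and from 6 to 12 in WT, and from 8 to 16 and 8 to 15 under the other settings. In total DCs the count of 0 became 1 higher after quantile normalization, 2 higher with genes above the median gene only, 1 lower after cyclic loess, 1 lower with trended robust variances, and ranged from 0 to 1 with single arrays omitted. Counts stayed at 0 in experiments 1 and 2, including fits of experiment 2 arrays alone, an alternative chosen after seeing the data. With a replicate block, 34 members were called in CD8- DCs, 0 for the difference between subsets, 12 and 14 for CD8+ minus CD8- in Mst1/2-KO and WT, and 0 in total DCs and experiment 1. Outside the WT subsets same-numbered arrays were not taken as pairs. The cause of these movements was not tested, apart from the smaller fits and omissions, which hold fewer arrays. A lone array limits both comparisons of experiment 2.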

Other observations

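The probe set that Ccne2, cyclin E2, shares with Ints8 differed between Mst1/2-KO and WT by 0.37 in CD8+ DCs, 0.49 in CD8- DCs and 0.50 in total DCs, and cannot be assigned to either gene. The probe set that Nusap1 shares with its neighbour Oip5 differed by 0.30 in CD8+ DCs and 0.73 in CD8- DCs. The probe set that Mcm7 shares with the miRNA gene Mir25, whose hairpin it hosts, differed by -0.13 in CD8+ DCs and -0.46 in CD8- DCs.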
